A study of Mus musculus with 6 samples.

Results

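Cytosolic ribosomal proteins are the protein part of the ribosome that translates nuclear-encoded mRNAs. Their genes were followed by RNA-seq in tumour spheroids. The cells were 4T1, a line of triple-negative breast cancer from the mouse. The members were the protein-coding genes whose symbol in GENCODE mouse release M21 starts with Rpl or Rps and goes on with a number, with at most a short suffix, together with Rplp0, Rplp1, Rplp2 and Rpsa; the S6 kinase genes (Rps6k) were left out. This gave 83 genes of 48820 listed gene identifiers, 51 of the large subunit and 32 of the small subunit. The libraries came from LATS1/2 double-knockout spheroids (labelled dKO, n = 3) and from wild-type spheroids (labelled WT, n = 3). Both were 4T1 cells kept as spheroids in RPMI with 10% fetal bovine serum and antibiotics, and total RNA was harvested with Trizol. Per the labels the 3 libraries of each group are biological replicates of a single 4T1 line. Whether they were separate cultures, and how many dKO clones were used, is not given in the sources used here, so p-values here speak only to how far these libraries scatter, and that scatter can be technical.

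A ribosome is built from a large and a small subunit, and each ribosomal protein occurs once per ribosome, except for the acidic stalk proteins, which occur in several copies. The small subunit reads the mRNA. The large subunit joins amino acids and lets the growing chain out through a tunnel. In mammals most of these mRNAs begin with a terminal oligopyrimidine (TOP) tract, a C followed by a run of pyrimidines at the 5′ end, through which the mTORC1 kinase complex and the RNA-binding protein Larp1 control their translation. Transcription of the genes, and of the factors that assemble ribosomes, is a known target of Myc.

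The start windows of 8 members are shown because the TOP tract is the sequence feature the family is known for; they include 3 of the 4 members that were lower in libraries labelled dKO. Each window runs from 10 bases before the annotated transcription start to 20 bases from it, 5′ to 3′, with the start at base 11. Capitals mark the C nearest to the start that is followed by at least 4 C or T, where one lay within 5 bases of it, and the C and T that run on from there; C or T before that C are left in lower case. The sequences are from RefSeq on GRCm38.p6.
Rpl14: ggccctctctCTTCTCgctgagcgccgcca
Rpl35: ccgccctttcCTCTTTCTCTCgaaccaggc
Rps21: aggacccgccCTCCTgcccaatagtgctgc
Rplp2: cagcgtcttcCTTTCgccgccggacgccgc
Rps10: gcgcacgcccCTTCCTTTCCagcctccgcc
Rps9: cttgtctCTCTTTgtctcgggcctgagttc
Rpl39: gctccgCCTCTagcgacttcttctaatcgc
Rpl22l1: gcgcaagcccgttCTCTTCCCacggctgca
Rpl14 (chr9:120571507-120571536, plus strand), Rpl35 (chr2:39005112-39005141, minus strand) and Rps21 (chr2:180257369-180257398, plus strand) were higher in libraries labelled dKO, and Rplp2 (chr7:141447641-141447670, plus strand) and Rps10 (chr17:27635225-27635254, minus strand) were not called. In these 5 windows the annotated start itself was such a C, and other C or T came just before it. A second annotated start of Rps21, not shown, had no such C within 5 bases. Rps9 (chr7:3704031-3704060, plus strand), Rpl39 (chrX:37085203-37085232, minus strand) and Rpl22l1 (chr3:28805498-28805527, plus strand) were lower, and the nearest such C lay 3 bases before the start in Rps9, 4 bases before it in Rpl39 and 3 bases after it in Rpl22l1. Of the 83 members, 63 were matched to RefSeq start windows of 250 bases before and 50 bases after the start. The annotated start was such a C in 13 of these 63 (20.6%), against 3.01% of 27025 genes with a window and 2.94% of 9851 tested coding genes. With such a C anywhere within 5 bases either side of the start, the shares were 46.0% of members, 21.2% of all genes and 23.7% of tested coding genes. By call, such a C at the start was found in 6 of 23 matched members that were higher, 7 of 34 not called and 0 of 3 that were lower. Within 5 bases either side, it was found in 12 of 23 higher, 14 of 34 not called and 3 of 3 lower. It was thus present both in members that were higher and in members that were not called. For the 3 lower members the result depended on the distance allowed.

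Estimated counts summed to 38194478 to 42486146 in libraries labelled dKO and 40150225 to 49630116 in WT. CPM below are counts scaled to the TMM-adjusted library total, log2 fold changes are labelled dKO minus WT ± SE, and a gene was called at an adjusted p under 0.05 by edgeR's quasi-likelihood test over all 15807 genes that passed the count filter. Of the knocked-out genes, Lats1 was lower in libraries labelled dKO (50.9 ± 2.55 CPM, SD, n = 3) than in WT (153 ± 6.36 CPM; edgeR, adjusted p = 4.66e-07). Lats2 was higher (77.9 ± 12.5 CPM in libraries labelled dKO, 27.2 ± 4.01 CPM in WT, edgeR, adjusted p = 3.46e-05), so its mRNA did not fall. The position of the edits is not given in the sources used here, so gene counts cannot check the label. Directions below refer to libraries labelled dKO. All 7 tested epithelial markers were called, 3 higher, among them Krt19, and 4 lower, among them Epcam, Krt8 and Krt18. The summed level of 9 leukocyte markers was 77.0 to 208.7 CPM in libraries labelled dKO and 3.30 to 16.3 CPM in WT, with Cd3e and Ly6g at 0. The 10 fibroblast markers summed to 4.61 to 7.49 CPM in libraries labelled dKO and 41.7 to 65.9 CPM in WT, with Lum, Thy1 and Dpt at 0. The 6 endothelial markers summed to 3.23 to 6.14 CPM in libraries labelled dKO and 21.5 to 25.8 CPM in WT, with Kdr and Emcn at 0. Of 13 mitochondrially encoded mRNAs, 1 was higher, 3 were lower and 9 were not called (30.8% called, against 57.3% of all genes tested). The part of these differences in the results below was not tested, and in bulk RNA fewer cells of a type cannot be told apart from less RNA per cell.

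Among ribosomal protein genes, more rose than fell in libraries labelled dKO, and more than either were not called. Of the 80 tested members, 30 were higher, 4 were lower and 46 were not called; among all genes tested, 28.6% were higher and 28.7% lower. The stalk gene Rplp1 led the members that rose, at close to 2-fold, followed by Rpl7a, Rpl36a, Rpl35a, Rps25 and Rps27l; the place of Rpl7a is less certain, since its log2 fold change was 0.72 ± 0.19 on the gene alone and 0.36 ± 0.071 with its pseudogene copies. Rpl22l1, Rps9, Rpl39 and Rpl3 were the 4 that fell. In all, 42.5% of tested members were called, which is under the 57.3% called among all genes tested. The median log2 fold change of the tested members was 0.13, with quartiles of -0.03 and 0.39 and a range of -0.83 to 0.97, beside a median of -0.01 over all genes tested. The log2 fold change was above 0 in 56 of 80. Every called member stayed under 2-fold, a size that was reached with a call by 26.1% of all genes, and 8 members were called with at least 1.5-fold, against 40.8% of all genes. The libraries of the groups did not overlap for 47 members, 38 higher and 9 lower, where 65.6% of all genes tested did not overlap. Rpl10l and Rpl39l, copies known from mouse testis, were at 0 counts in every library, and Rpl3l, a muscle copy of Rpl3, had counts in WT 3 only (0.172 CPM), so these 3 were not tested.

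The 18 members that were higher under each of the 17 alternative settings tried were Rplp0, Rplp1, Rpl4, Rpl6, Rpl8, Rpl9, Rpl13, Rpl14, Rpl23a, Rpl24, Rpl36a, Rps7, Rps12, Rps21, Rps25, Rps27l, Rps29 and Rpsa. The 4 lower calls also held under each of these settings. The stricter threshold of 0.01 by itself left the same 18 higher and 4 lower. The share of all genes whose calls held throughout is not given here, so 18 cannot be set against it. How many other members counted as lower depended on the libraries kept and on the scaling. Without WT 2 and dKO 3, 21 were lower and 33 higher (62.3% of all genes called, 31.3% higher). Without dKO 3 alone, 10 were lower and 29 higher, and without WT 2 alone, 9 were lower and 29 higher. Shares of all genes for these 2 fits are not given here. WT 2 had the lowest and dKO 3 the highest share of counts on members, so leaving them out by itself narrows the difference in that share. Its part in the calls was not tested. With every library kept and an offset for transcript length and GC content, 13 were lower and 26 higher (58.1% of all genes called, 29.7% higher).

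**Figure D1:**
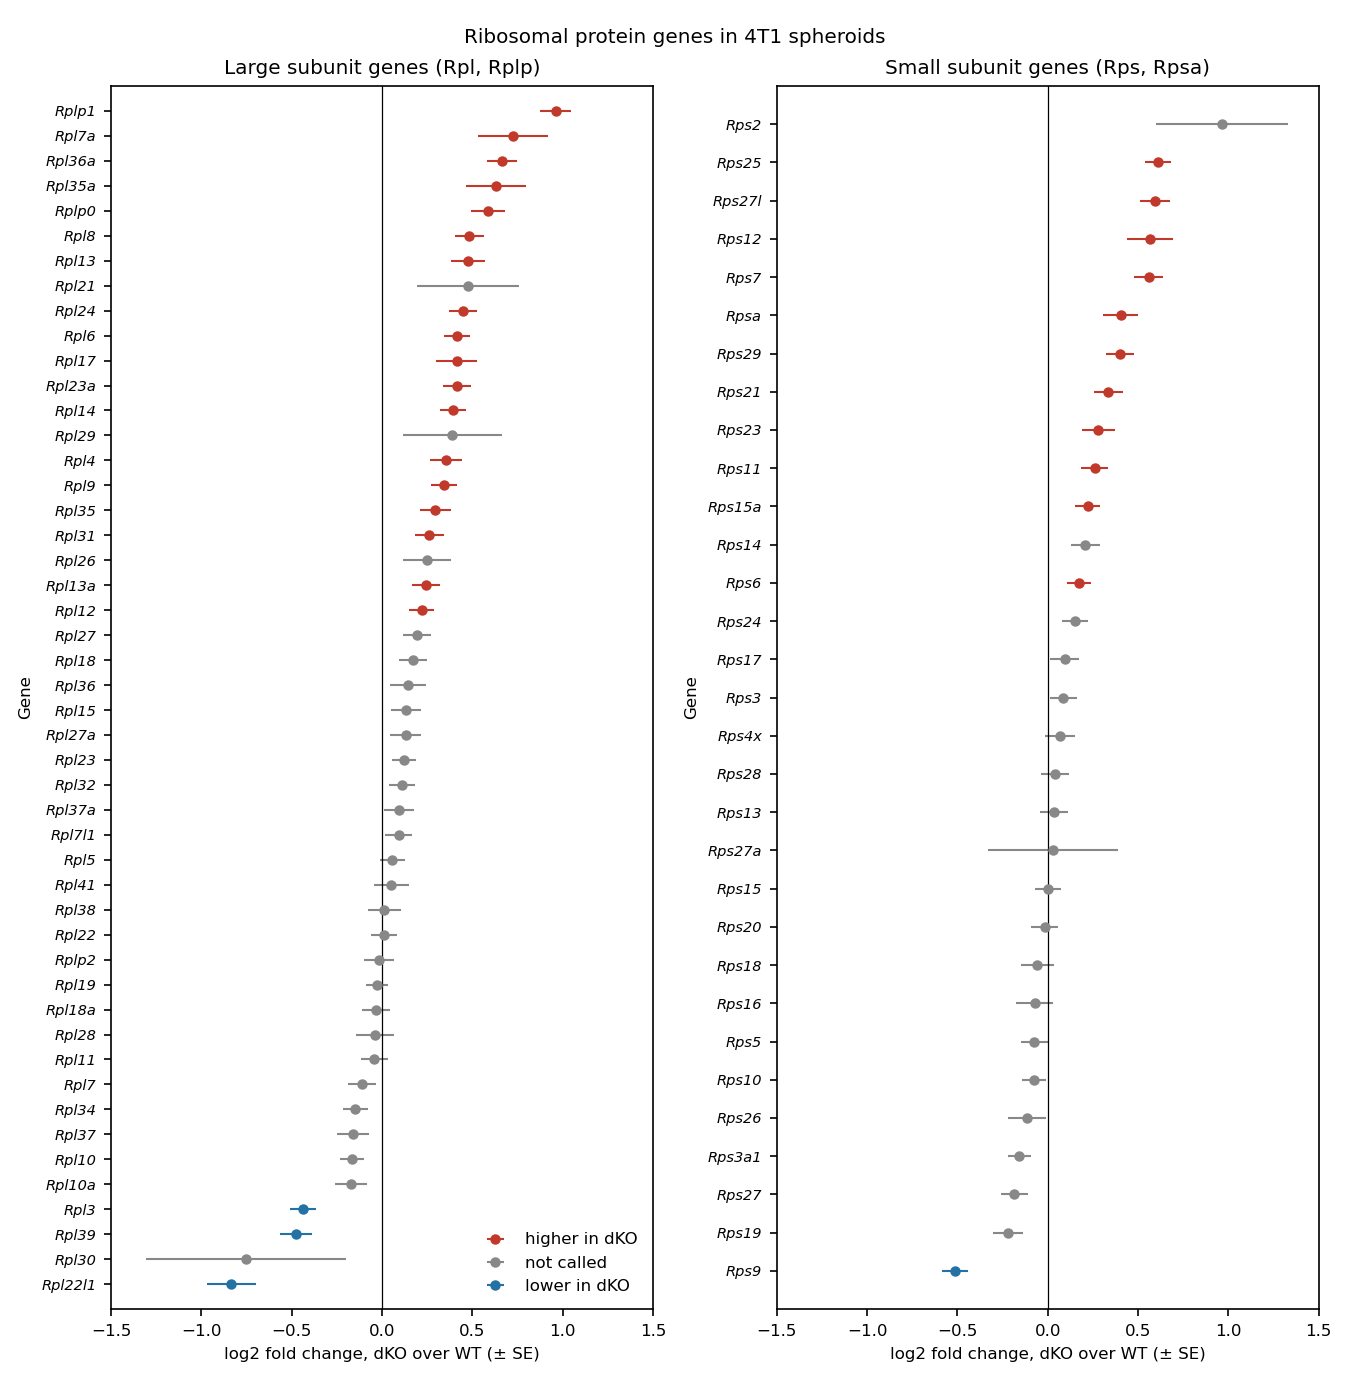
Log2 fold change of the 48 tested large subunit genes (left) and 31 of the 32 tested small subunit genes (right), labelled dKO over WT, on the x axis, with genes down the page in order of the value. Points are fitted values and bars are SE; red points are 29 of the 30 genes higher, blue points the 4 genes lower and grey points the 46 not called at an adjusted p of 0.05. Most points lie right of 0, and Rps2, Rpl30 and Rps27a have the widest bars.

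The share of genes that rose was the same in both subunits. Of 48 tested large subunit genes, 18 were higher and 3 lower; of 32 tested small subunit genes, 12 were higher and 1 lower. That is 37.5% higher in each, against 28.6% of all genes, and the difference between the subunits was not tested. The median log2 fold change was 0.14 over the large subunit genes and 0.09 over the small subunit genes. On the genes alone, the largest change among called members was 0.96 for the large and 0.61 for the small subunit. Rps2, of the small subunit, had 0.97 alone but was not called. With pseudogene copies summed, it was called at 0.91, beside 0.97 for Rplp1 of the large subunit. Under the length and GC offset the median over the small subunit genes was 0.01 and that over the large subunit genes 0.08.

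Summed over the 83 members, the share of each library's counts was 5.47%, 5.40% and 6.004% in libraries labelled dKO 1 to 3, and 5.04%, 4.64% and 5.12% in WT 1 to 3. Every library labelled dKO lay above every WT library, with dKO 3 the highest and WT 2 the lowest. The means were 5.62 ± 0.331% in libraries labelled dKO and 4.93 ± 0.257% in WT (SD, n = 3 each), a difference of 0.69 percentage points. The exact two-sided permutation test gave p = 0.1, the smallest that 3 against 3 libraries allow. Large subunit genes took 3.49 ± 0.195% of counts in libraries labelled dKO and 2.99 ± 0.166% in WT, and small subunit genes took 2.13 ± 0.137% in libraries labelled dKO and 1.95 ± 0.0920% in WT. Without dKO 3 the difference in the summed share was 0.501 points, and without WT 2 it was 0.545 points. In counts on the genes alone, a few abundant genes carried much of the sum. Rplp1 held 14.2% of the net difference, Rplp0 11.4% and Rpsa 8.76%, and the 6 genes with the largest gains together held 52.3%. Rps2 held 1.09% alone. With pseudogene copies the order differed: mean CPM in libraries labelled dKO and in WT was 4445 and 2907 for Rplp0, 2921 and 1556 for Rps2, and 1997 and 1020 for Rplp1.

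The ratio of large to small subunit counts was 1.63, 1.66 and 1.62 in libraries labelled dKO, against 1.56, 1.52 and 1.53 in WT, with no overlap. With pseudogene copies counted in, it was 1.70, 1.72 and 1.69 in libraries labelled dKO and 1.66, 1.64 and 1.66 in WT, again with no overlap. Rplp0 and Rplp1 were left out after they were seen to have the largest gains on the genes alone, which by itself narrows the gap. Without them the ratio of counts on the genes alone was 1.43, 1.46 and 1.42 in libraries labelled dKO and 1.42, 1.39 and 1.40 in WT, and dKO 3 lay below WT 1.

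**Figure D2:**
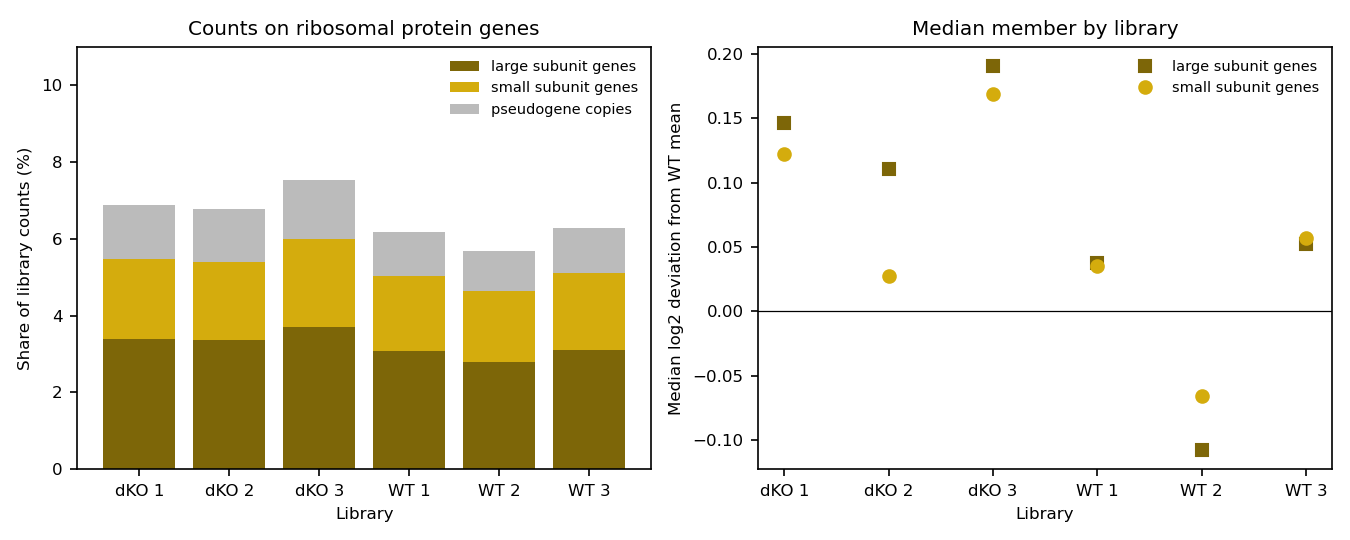
Left, stacked bars of the share of each library's counts (%) on large subunit genes, small subunit genes and their pseudogene copies; right, the median over members of the log2 deviation from the WT mean of each gene, for large (squares) and small (circles) subunit genes. The 3 libraries labelled dKO stand left of the 3 WT libraries, and WT 2 is the lowest and dKO 3 the highest in both panels. In the right panel the small subunit median of dKO 2 (0.0276) lies below those of WT 1 (0.0356) and WT 3 (0.0567).

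The stalk of the large subunit recruits the GTPases that drive elongation, and 3 of its 4 genes rose. Beside this, 28.6% of all genes tested were higher and 57.3% were called. Rplp1 (ENSMUSG00000007892, chr9:61913284-61914542), one of its acidic proteins, had 1916, 1909.9 and 2128 CPM in libraries labelled dKO, against 1101, 925 and 1032 CPM in WT. The groups lay far apart, and the log2 fold change was 0.96 ± 0.085 (edgeR, adjusted p = 1.79e-05). Rplp0 (ENSMUSG00000067274, chr5:115559467-115563727), the protein that anchors the stalk to the ribosome, had 2231, 2173 and 2468 CPM in libraries labelled dKO and 1520.0, 1354 and 1699 CPM in WT. It did not overlap either, at 0.59 ± 0.095 (edgeR, adjusted p = 0.000707). Rplp2, the acidic partner that pairs with Rplp1 in the stalk dimers, had 486, 507 and 587 CPM in libraries labelled dKO and 538, 517 and 542 CPM in WT. Its groups overlapped, and its log2 fold change of -0.02 ± 0.082 was not called (edgeR, adjusted p = 0.879). Rplp1 and Rplp2 thus had unlike fold changes, although the difference between them was not tested. Rpl12, at the stalk base, had 927, 951 and 1022 CPM in libraries labelled dKO, against 862, 790.3 and 839 CPM in WT and rose by 0.22 ± 0.07 on the log2 scale (edgeR, adjusted p = 0.024). That call was lost in 3 of the fits that left out a library, where its adjusted p was 0.0522 to 0.0572, and with the length and GC offset, where its log2 fold change was 0.14 (edgeR, adjusted p = 0.074). Rpl5 and Rpl11, which bring 5S rRNA into the large subunit and can bind the p53 inhibitor Mdm2, were not called, with log2 fold changes of 0.06 ± 0.068 and -0.04 ± 0.074. Rpl5 had 1214, 1235 and 1285 CPM in libraries labelled dKO and 1202, 1131 and 1256 CPM in WT, and the groups overlapped.

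**Figure D3:**
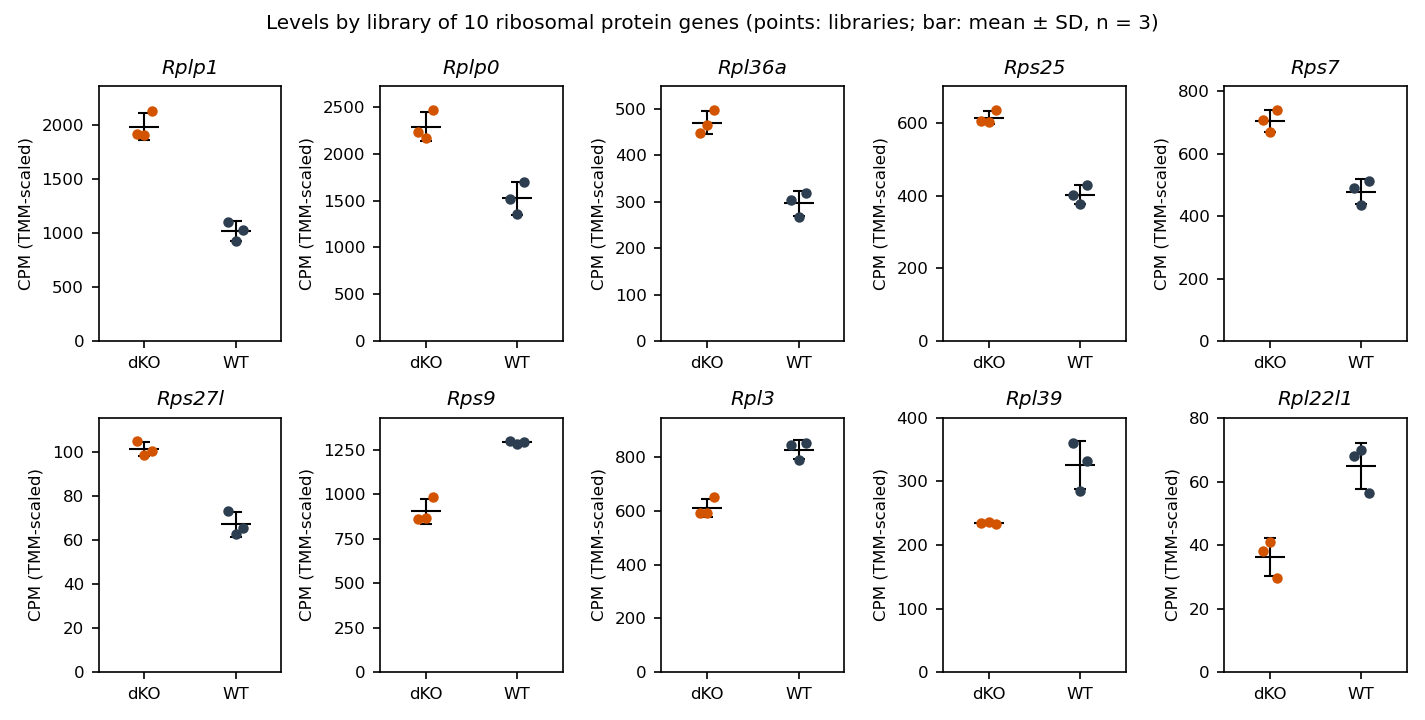
TMM-scaled CPM (y axis, from 0) of 10 ribosomal protein genes in each library labelled dKO (left) and WT (right) of each panel, with the mean ± SD of 3 libraries as bars. In Rplp1, Rplp0, Rpl36a, Rps25, Rps7 and Rps27l every library labelled dKO lies above every WT library, and in Rps9, Rpl3, Rpl39 and Rpl22l1 every one lies below.

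Near the peptidyl transferase centre, where peptide bonds form, genes went both ways: of 6 members, 2 were higher, 1 was lower and 3 were not called. That is 50% called, against 57.3% of all genes tested. Rpl36a (chrX:134585654-134588062), a protein by the exit site for tRNA, had 448, 466 and 498 CPM in libraries labelled dKO, against 304, 267 and 320.1 CPM in WT. The groups were apart, at 0.66 ± 0.084 (edgeR, adjusted p = 0.000159). Its near-identical paralog Rpl36al, which the symbol rule leaves out, had 197, 207 and 191 CPM in libraries labelled dKO and 126, 145 and 135 CPM in WT, and rose by 0.56 ± 0.075 on the log2 scale (edgeR, adjusted p = 0.000242). Both genes rose, and reads shared between them cannot be told apart. Rpl8, one of the proteins closest to the centre, had 989.8, 992 and 1145 CPM in libraries labelled dKO and 775, 703 and 760.2 CPM in WT. It rose by 0.48 ± 0.081 on the log2 scale (edgeR, adjusted p = 0.000877) with no overlap. Rpl10, a late-joining protein of the same region, had 1166, 1175 and 1226 CPM in libraries labelled dKO, against 1343, 1281 and 1380.2 CPM in WT; the groups did not overlap, but its log2 fold change of -0.17 ± 0.064 was not called (edgeR, adjusted p = 0.0514).

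Along the peptide exit tunnel and its rim, 5 of 9 members rose, 1 fell and 3 were not called. The share called was 66.7%. Over all genes tested, 57.3% were called and 28.6% were higher. The members that rose were Rpl4, Rpl17, Rpl23a, Rpl31 and Rpl35, with log2 fold changes of 0.26 to 0.41. Rpl23a, a docking site at the tunnel mouth for factors that meet the new chain, had 954, 991 and 933 CPM in libraries labelled dKO and 687, 684 and 792 CPM in WT (log2 fold change 0.41 ± 0.078, edgeR, adjusted p = 0.00169). Every library labelled dKO was above every WT library. Rpl39, a small protein that lines the tunnel, went the other way and is described with the lower genes. Of the 6 members at the bridges between the subunits, 2 rose and 4 were not called (33.3% called). Rpl24 had 514, 509 and 562 CPM in libraries labelled dKO and 393, 358 and 412 CPM in WT (log2 fold change 0.45 ± 0.077, edgeR, adjusted p = 0.00101), again with no overlap.

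In the head of the small subunit, 3 of 9 members rose and 6 were not called. That is 33.3% called, all of them higher, near the 28.6% of all genes tested that were higher. Rps25 (chr9:44407139-44410427), a head protein known for its use by viral internal ribosome entry sites, had 608, 603 and 638 CPM in libraries labelled dKO, against 402, 378 and 431 CPM in WT. These groups lay well apart, at 0.61 ± 0.071 (edgeR, adjusted p = 9.87e-05). Rps12 had 588, 655 and 671 CPM in libraries labelled dKO, against 445, 345 and 503 CPM in WT, with a wider WT spread than the other 2 head genes that rose (log2 fold change 0.57 ± 0.13, edgeR, adjusted p = 0.00492). Rps29, a zinc-binding protein, rose by 0.40 ± 0.079 on the log2 scale (edgeR, adjusted p = 0.00213), with 415, 455 and 437 CPM in libraries labelled dKO and 362, 314 and 313 CPM in WT. The other 6 head members had log2 fold changes of -0.22 to 0.09 and were not called.

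Where the mRNA leaves the small subunit, 2 of 6 members rose and 4 were not called. That is 33.3% called, all of them higher, near the 28.6% of all genes tested that were higher. Rpsa, which is also known as a laminin receptor and is the most abundant member by CPM on the gene alone, had 2279, 2255 and 2627 CPM in libraries labelled dKO and 1846, 1602 and 1962 CPM in WT. Its groups did not overlap (log2 fold change 0.40 ± 0.096, edgeR, adjusted p = 0.00589). Rps21, its neighbour on the ribosome, had 524, 541 and 604 CPM in libraries labelled dKO, against 439, 472 and 411 CPM in WT (log2 fold change 0.34 ± 0.082, edgeR, adjusted p = 0.00676). Where the mRNA enters and is decoded, 1 of 6 members rose and 1 fell (33.3% called, against 57.3% of all genes tested). The member that rose was Rps23, a decoding protein with 568, 576 and 659 CPM in libraries labelled dKO and 507, 448 and 529 CPM in WT (log2 fold change 0.28 ± 0.089, edgeR, adjusted p = 0.0236). Its call was lost without dKO 3, WT 1 or WT 2, with adjusted p of 0.0557 to 0.0599. The member that fell was Rps9.

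Rps6, the substrate of the S6 kinases whose phosphorylation is read as a sign of mTORC1 activity, had 1091, 1128 and 1195 CPM in libraries labelled dKO and 1006, 984 and 1037 CPM in WT. The groups did not overlap, but the log2 fold change of 0.17 ± 0.066 was at the edge of the threshold (edgeR, adjusted p = 0.0491). That call was lost in 11 of 17 alternatives, with DESeq2 giving an adjusted p of 0.0631. These are mRNA levels and carry nothing on phosphorylation. Of 9 members whose human counterparts are mutated in Diamond-Blackfan anaemia, a disorder of ribosome production, 2 rose and 7 were not called. The share called was 22.2%, against 57.3% of all genes tested. Rps7 (chr12:28630854-28635953) had 707, 669 and 741 CPM in libraries labelled dKO, against 489.8, 435 and 511 CPM in WT, and the groups were apart (log2 fold change 0.56 ± 0.081, edgeR, adjusted p = 0.00035). Rpl35a rose by 0.63 ± 0.17 on the log2 scale (edgeR, adjusted p = 0.0107), and is taken up with the pseudogene copies. Rps19, the gene most often mutated in that disorder, had 463, 475 and 560.2 CPM in libraries labelled dKO and 596, 578 and 569 CPM in WT and was not called (log2 fold change -0.22 ± 0.084, edgeR, adjusted p = 0.0511).

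The 4 genes that fell code for proteins of different regions of the ribosome. Rps9 (ENSMUSG00000006333, chr7:3703993-3706897), which lies at the mRNA entry, had 861, 866 and 988 CPM in libraries labelled dKO, against 1302, 1282 and 1292 CPM in WT. The WT libraries lay close together, and none came near the libraries labelled dKO (log2 fold change -0.51 ± 0.074, edgeR, adjusted p = 0.000345). Rpl3 (chr15:80077791-80091868), whose loop reaches toward the peptidyl transferase centre, had 591, 591 and 649 CPM in libraries labelled dKO and 844, 787 and 849 CPM in WT, and it too did not overlap (log2 fold change -0.44 ± 0.07, edgeR, adjusted p = 0.000678). Rpl3 overlaps Syngr1 on the other strand, and 56.5% of the counts of its family lay on the gene itself. Rpl39 (chrX:37082520-37085402) had 234, 236 and 234 CPM in libraries labelled dKO, nearly equal, and 361, 286 and 332 CPM in WT, with WT 2 the lowest of the WT libraries and no overlap (log2 fold change -0.48 ± 0.088, edgeR, adjusted p = 0.00155). Rpl22l1 (ENSMUSG00000039221, chr3:28805436-28807424) is a paralog of Rpl22 that, in mouse, Rpl22 is known to repress. It had 38.4, 41.2 and 29.7 CPM in libraries labelled dKO, against 68.2, 70.0 and 56.6 CPM in WT, and had the largest change of these 4 (log2 fold change -0.83 ± 0.14, edgeR, adjusted p = 0.000779). Rpl22 itself had 343, 374 and 379.8 CPM in libraries labelled dKO and 373, 342 and 374 CPM in WT; the groups overlapped and it was not called (log2 fold change 0.01 ± 0.071, edgeR, adjusted p = 0.907).

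Besides Rpl22l1, Rps27l was the paralog that was called. This gene, which p53 is known to induce, had 105, 98.9 and 101 CPM in libraries labelled dKO, against 73.4, 62.8 and 65.6 CPM in WT, and rose with no overlap (log2 fold change 0.59 ± 0.082, edgeR, adjusted p = 0.000266). Its parent Rps27 had 340.1, 308 and 363 CPM in libraries labelled dKO and 378, 378 and 394 CPM in WT, lower in each library labelled dKO than in any WT library, but was not called (log2 fold change -0.18 ± 0.075, edgeR, adjusted p = 0.0627). The difference between the paralogs was not tested. Rpl7l1 and its parent Rpl7 were not called, with log2 fold changes of 0.09 ± 0.075 and -0.11 ± 0.077, and neither was Rps4x (0.07 ± 0.081), the X-linked parent of Rps4l, a gene outside the symbol rule that was at 0 in every library. Of the 7 parents, 2 fell (Rpl3 and Rpl39) and 5 were not called. That is 28.6% called, all of them lower, where 28.7% of all genes tested were lower.

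Levels were compared between genes per length, as mean CPM per kilobase of the annotated transcript. Only counts on the gene itself were used, and the order can differ with pseudogene copies. Rplp1 was the highest member, with 3977 CPM per kilobase in libraries labelled dKO and 2042 in WT. Rpl41, the gene of the shortest ribosomal protein, came next with 2642 CPM per kilobase in libraries labelled dKO and 2550 in WT, and Rpl13 followed with 1868 in libraries labelled dKO and 1343 in WT. This order is by the mean of both groups. In WT libraries alone, Rpl41 was above Rplp1, and Rps9 (1720.4), Rpl10 (1671), Rps24 (1373) and Rps15 (1353) were above Rpl13. The median over tested members was 928 CPM per kilobase in libraries labelled dKO and 844 in WT. Rpl29, Rpl21 and Rpl26 were the lowest, at 3.95, 14.8 and 37.1 CPM per kilobase in libraries labelled dKO and 3.02, 10.7 and 31.2 in WT. For these 3 genes most counts of the family lay on annotated copies, as the next comparison shows. Across the 80 tested members the Spearman correlation of the log2 fold change was 0.04 with transcript length, 0.04 with GC content and 0.02 with the level per length; the points share the same 6 libraries.

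Ribosomal protein genes have many processed pseudogenes, and reads of a member can be assigned to a near-identical copy. Among annotated pseudogenes, 907 aligned best to a member with at least 90% identity over at least 50% of their length, and 659 of these had counts. Of the tested members, 79 had at least 1 such copy, and the median member kept 96.6% of the counts of its family, the gene with its copies. For 9 members the gene held under 50%: Rpl29 (0.312%), Rpl21 (1.44%), Rpl26 (2.63%), Rps2 (5.09%), Rpl30 (9.54%), Rpl35a (10.5%), Rps18 (13.98%), Rpl17 (43.3%) and Rpl7a (49.1%). How the deposited counts shared such reads out is not given in the sources used here.

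With each family summed, an alternative chosen after the values were seen, 36 members were higher, 4 lower and 40 not called, where 58.0% of all genes tested were called and 29.1% were higher. All 34 calls made on the genes alone remained in the same direction, and Rps2, Rpl29, Rpl21, Rpl26, Rpl27 and Rps14 were added as higher. Rps2, at the mRNA entry, shows the difference most clearly; like Rpl30 and Rps27a it is described because of its values. Alone it had 174, 103 and 180.3 CPM in libraries labelled dKO and 44.1, 91.3 and 98.1 CPM in WT, scattered within each group and with dKO 2 just above the highest WT library, and was not called (log2 fold change 0.97 ± 0.37, edgeR, adjusted p = 0.066). With its copies it had 2837, 2803 and 3123 CPM in libraries labelled dKO, against 1629, 1395 and 1643 CPM in WT, and the groups were far apart (log2 fold change 0.91 ± 0.085, edgeR, adjusted p = 2.31e-05). Rpl29 had 2.22, 2.46 and 2.23 CPM alone in libraries labelled dKO and 1.72, 1.66 and 1.90 CPM in WT, and its adjusted p was 0.259 (edgeR). With copies it had 789, 732 and 822 CPM in libraries labelled dKO and 536, 481 and 561 CPM in WT, which did not overlap (log2 fold change 0.57 ± 0.08, edgeR, adjusted p = 0.000285). Rpl35a with copies had 521, 503 and 540.4 CPM in libraries labelled dKO and 352, 311 and 338 CPM in WT (log2 fold change 0.64 ± 0.071, edgeR, adjusted p = 6.24e-05), close to its value of 0.63 ± 0.17 alone. Rplp0 held 51.9% of its family counts, and with copies it had 4295, 4242 and 4799 CPM in libraries labelled dKO and 2972, 2591 and 3158 CPM in WT (log2 fold change 0.61 ± 0.09, edgeR, adjusted p = 0.000372). The direction and the separation of the groups were those of the gene alone.

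Some single libraries that stood out lay nearer to the rest once copies were summed. Rpl30 had 26.9, 33.8 and 50.6 CPM in libraries labelled dKO and 36.0, 115 and 37.1 CPM in WT, where WT 2 alone was high. With copies the libraries lay closer, with each library labelled dKO below each WT library, at 479.6, 473 and 519 CPM in libraries labelled dKO and 540.2, 529.6 and 547 CPM in WT, and it was not called either way. Rps27a, a ubiquitin fusion gene, had 510.4, 285 and 357 CPM in libraries labelled dKO and 295, 268 and 567 CPM in WT, high in dKO 1 and in WT 3. With copies the values were 572, 455 and 516 CPM in libraries labelled dKO and 497, 441 and 637 CPM in WT, still highest in WT 3. The 51 tested members whose genes held at least 90% of their family counts gave 16 higher, 3 lower and 32 not called; the 31.4% that were higher is near the 28.6% of all genes tested. Over members and copies together the share of library counts was 7.07 ± 0.413% in libraries labelled dKO and 6.05 ± 0.311% in WT (SD, n = 3 each).

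**Figure D4:**
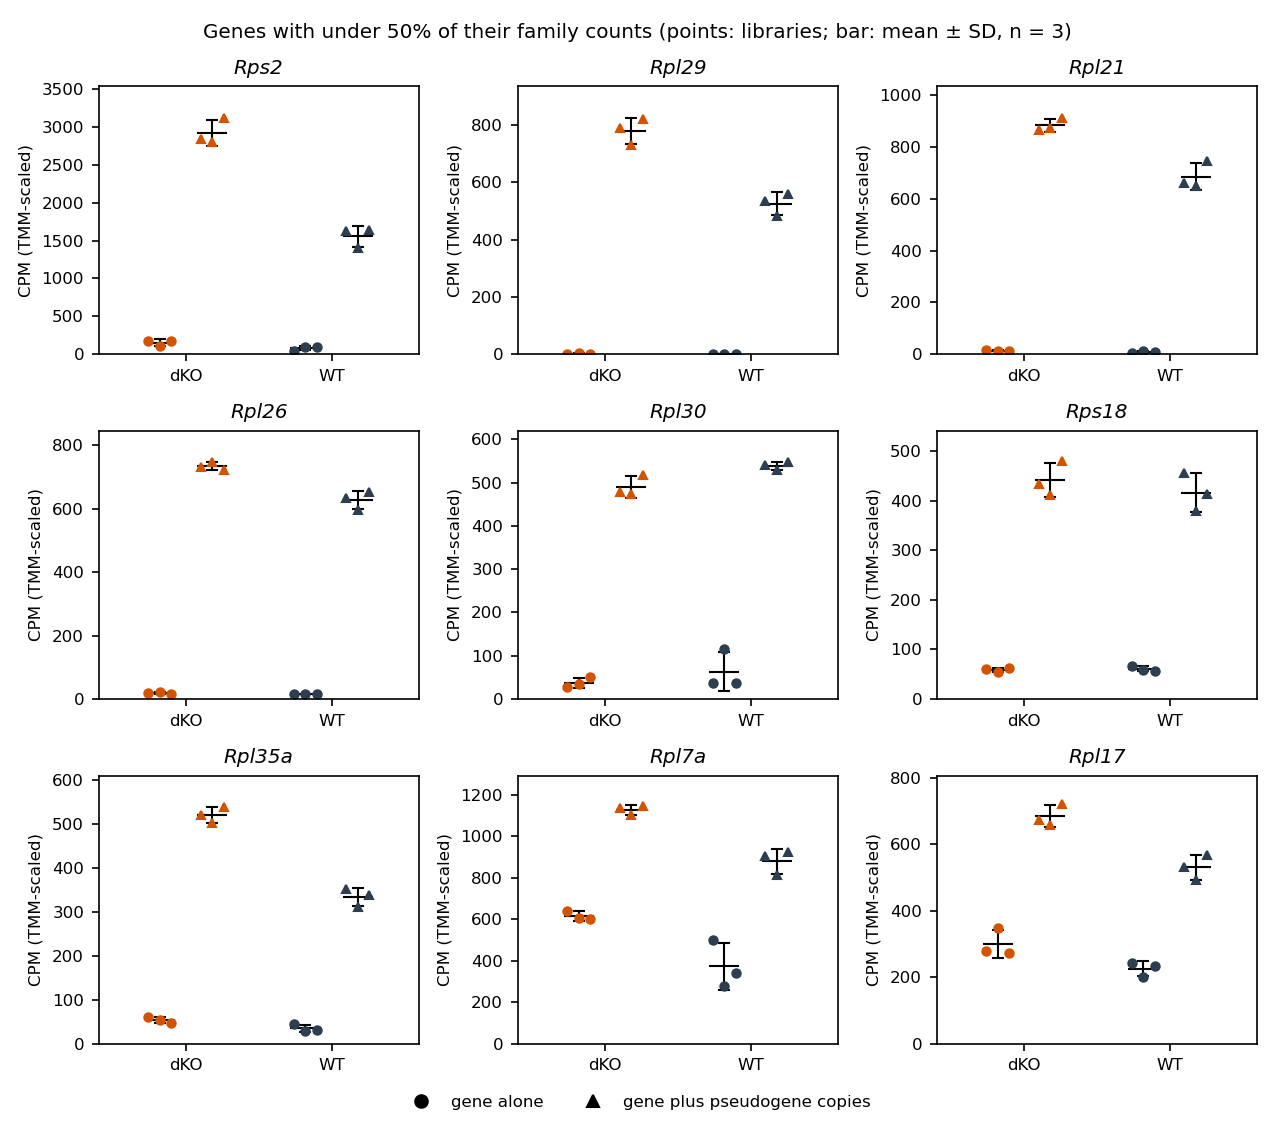
TMM-scaled CPM (y axis, from 0) in libraries labelled dKO (left) and WT (right) for the 9 members whose gene held under 50% of the counts of its family; circles are the gene alone, triangles the gene with its pseudogene copies, and bars the mean ± SD of 3 libraries. The triangles of each group lie closer together, relative to their level, than the circles in Rps2, Rpl21, Rpl30, Rpl35a, Rpl7a and Rpl17.

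Among lists of other genes that build ribosomes or serve translation, some had a share of calls above the 57.3% of all genes tested. Others were near it, and the ribosomal protein genes outside the symbol rule were below it (40.0%). There was no test between lists. Of 51 tested ribosome assembly factors, 41 rose, 2 fell and 8 were not called (84.3% called), with a median log2 fold change of 0.62. Nolc1, a nucleolar phosphoprotein that binds small nucleolar RNPs, had 259, 266 and 273 CPM in libraries labelled dKO, against 125, 113 and 126 CPM in WT (log2 fold change 1.14 ± 0.07, edgeR, adjusted p = 2.16e-06). Wdr75, a factor of early small subunit assembly, had 108, 117 and 106 CPM in libraries labelled dKO and 47.0, 48.0 and 49.5 CPM in WT (log2 fold change 1.19 ± 0.075, edgeR, adjusted p = 2.25e-06). The groups did not overlap for either gene. Of 29 listed translation initiation factors, 19 rose, 1 fell and 9 were not called (69.0% called), with a median of 0.64. Eif1a, which acts in start codon scanning, led with 242, 259 and 224 CPM in libraries labelled dKO and 88.3, 90.1 and 91.0 CPM in WT (log2 fold change 1.43 ± 0.074, edgeR, adjusted p = 7.99e-07), and Eif2s2, the beta subunit of eIF2, rose by 1.12 ± 0.075 on the log2 scale (edgeR, adjusted p = 3.49e-06). In the list of other TOP mRNAs, the initiation factor genes Eif3e, Eif3f, Eif3h and Eif3l were lower. Their log2 fold changes were -0.80, -0.83, -0.36 and -0.34. Eif4b, also in that list, was not called.

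Mitochondrial ribosomal protein genes, 78 of them tested, gave 44 higher, 4 lower and 30 not called (61.5% called, near the share over all genes), with a median log2 fold change of 0.30. Mrpl33 had 178, 160.4 and 173 CPM in libraries labelled dKO and 51.3, 47.5 and 54.1 CPM in WT (log2 fold change 1.74 ± 0.08, edgeR, adjusted p = 4.15e-07), and Mrpl16 rose by 1.35 ± 0.11 (edgeR, adjusted p = 1.08e-05). RNA polymerase I genes, which make rRNA, were mixed: of 18, 7 rose, 4 fell and 7 were not called (61.1% called, also near the 57.3% of all genes). Rrn3, the factor that makes the polymerase able to start, had 94.8, 110.3 and 106 CPM in libraries labelled dKO, against 49.7, 49.99 and 52.7 CPM in WT (log2 fold change 1.03 ± 0.083, edgeR, adjusted p = 9.81e-06). Ubtf, the rDNA promoter factor, fell, with 150.4, 150.3 and 162 CPM in libraries labelled dKO and 234, 260.4 and 253 CPM in WT (log2 fold change -0.69 ± 0.071, edgeR, adjusted p = 4.39e-05).

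Other TOP mRNAs moved in both directions. Of 18 tested, 7 rose, 8 fell and 3 were not called (83.3% called), with a median log2 fold change of -0.21. Tpt1, the translationally controlled tumour protein, had 1903, 1978 and 1842 CPM in libraries labelled dKO, against 3344, 3599.6 and 3477 CPM in WT (log2 fold change -0.86 ± 0.066, edgeR, adjusted p = 7.26e-06). Hnrnpa1, a splicing regulator, had 470.2, 479 and 533 CPM in libraries labelled dKO and 961, 897 and 1004 CPM in WT (log2 fold change -0.95 ± 0.078, edgeR, adjusted p = 1.14e-05). Both lay well below WT in every library labelled dKO. Those that rose included the elongation factor genes Eef1a1, Eef1b2, Eef1d and Eef1g. The elongation factor gene Eef2 was not called (log2 fold change -0.19 ± 0.075, edgeR, adjusted p = 0.0535), though each library labelled dKO lay below each WT library. Pabpc1 and the Eif3 genes named above were among those that fell. Outside the symbol rule, 2 of 5 tested ribosomal protein genes rose and 3 were not called (40.0% called). Among all genes tested, 28.6% were higher and 57.3% were called. Fau, a ubiquitin-like fusion, rose by 0.27 ± 0.077 (edgeR, adjusted p = 0.0144; 0.0565 without WT 3), while Rack1 and Rps27rt were not called.

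Among 21 tested regulators of TOP mRNA translation and of ribosomal protein supply, 8 rose, 4 fell and 9 were not called (57.1% called, against 57.3% of all genes). Eif4ebp1, the mTORC1 substrate that holds back cap-dependent initiation, had 267, 249.7 and 272 CPM in libraries labelled dKO, against 50.2, 48.0 and 52.0 CPM in WT (log2 fold change 2.39 ± 0.072, edgeR, adjusted p = 4.74e-08). Rheb, the GTPase that activates mTORC1, had 212, 203 and 196 CPM in libraries labelled dKO and 99.1, 92.2 and 92.7 CPM in WT (log2 fold change 1.10 ± 0.068, edgeR, adjusted p = 2.13e-06). These groups were far apart. Mtor, the kinase itself, rose by 0.64 ± 0.09 (edgeR, adjusted p = 0.000321) and Rptor, a subunit of mTORC1, fell. Myc had 114, 107 and 167 CPM in libraries labelled dKO and 73.4, 75.3 and 87.7 CPM in WT, with dKO 3 the highest, and rose by 0.71 ± 0.17 (edgeR, adjusted p = 0.00576). Larp1, the TOP-binding protein, had 242, 237 and 285 CPM in libraries labelled dKO and 244, 226 and 245 CPM in WT and was not called (log2 fold change 0.10 ± 0.085, edgeR, adjusted p = 0.369). With the length and GC offset it was called higher (edgeR, adjusted p = 0.000754).

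**Figure D5:**
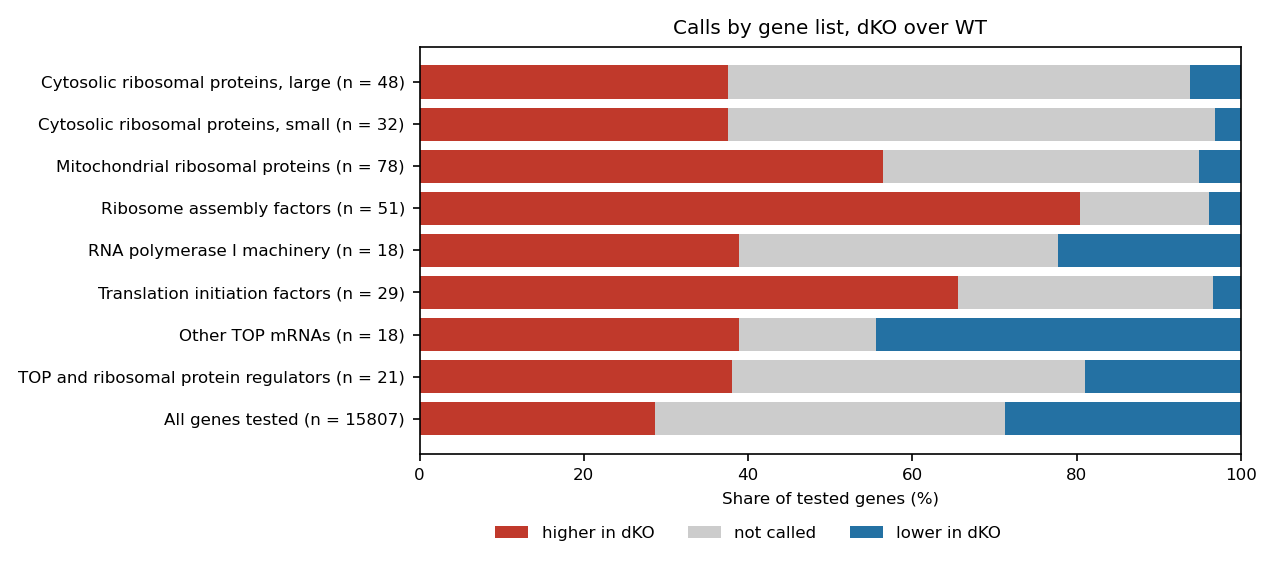
Share of tested genes (%, x axis) that were higher (red), not called (grey) and lower (blue) in libraries labelled dKO relative to WT, for the large and small subunit genes, 6 other lists and all 15807 genes tested, with the number of genes in brackets. Ribosome assembly factors have the longest red bar (41 of 51), and both ribosomal protein bars have short blue ends (3 of 48 and 1 of 32).

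The members lie on 19 chromosomes. Chromosome 7 holds the most, 14, of which 3 were higher, 1 was lower and 10 were not called. Over all genes tested, 28.6% were higher and 28.7% lower. Of the 83 members, 30 contain at least 1 annotated small nucleolar RNA gene within their bounds, 59 in all, and 23 overlap a gene on the other strand, whose reads cannot be told apart where strand was not used in counting. Among members described here these pairs include Rpl12 with Lrsam1, Rpl23a with Tlcd1, Rps25 with Trappc4 and Ccdc84, Rps2 with Snhg9 and Rps27a with Clhc1. Of the 30 hosts, 12 were higher, 2 lower and 16 not called, and the 50 tested members without such a gene gave 18, 2 and 30. In the 300-base promoter windows, searched on both strands, CCGGAAG, the core of sites bound by GABP and other ETS factors, occurred in 26 of 63 members (41.3%), against 9.93% of all genes and 20.3% of tested coding genes. It was found in 9 of 23 members that were higher and 15 of 34 not called. The SP/KLF core GGGCGG occurred in 61.9% of members, 38.2% of all genes and 68.2% of tested coding genes. GGAATG, the core bound by TEAD factors, the DNA-binding partners of the YAP and TAZ proteins that LATS kinases inhibit, occurred in 6 of 63 members (9.52%), against 16.6% of all genes and 14.4% of tested coding genes. By call, it was found in 0 of 23 members that were higher, 6 of 34 not called and 0 of 3 lower, a difference that was not tested. The E-box CACGTG occurred in 6 members (9.52%, against 8.09% of all genes and 11.6% of tested coding genes), the YY1 motif AAGATGGC in 6 (9.52%, against 3.19% of all genes and 5.32% of tested coding genes) and TATAAA in 7 (11.1%, against 15.7% of all genes and 8.64% of tested coding genes). A match describes letters in the window and is not evidence of binding.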

How the data were processed

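RNA-seq of 6 libraries of 4T1 spheroids, 3 labelled dKO and 3 labelled WT, was analysed from estimated counts per gene, which the authors deposited unscaled and as whole numbers. The build GRCm38 (mm10) and the tools StringTie 2.2.1 and HISAT2 2.2.1 are named in the submitters' processing notes. Not given in the sources used here are the counting step, its annotation, whether strand was used and how reads were shared among copies. Estimated counts pile up at 4, so a read pair may add several counts. Totals were 38194478 to 49630116 per library, and their number and spread limit the precision of each value.

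Symbols and coordinates were taken from GENCODE release M21 (GRCm38), where 48058 of the 48820 identifiers were found. The rule for members, the lists and the tests were chosen with earlier results of these data known. Counts were taken as whole numbers and tested with edgeR 4.0.16 in R 4.3.3: TMM, filterByExpr by group, robust quasi-likelihood dispersions and F-test, genotype as the only term, Benjamini-Hochberg adjustment over 15807 genes, called under 0.05. The SE is the absolute log2 fold change over the square root of F and is approximate. The script was tested on simulated counts. Lengths are those of 1 annotated principal transcript a gene. Pseudogene copies were annotated pseudogenes aligned to member transcripts with BLAST 2.17.0 (at least 90% identity over at least 50% of the pseudogene), each given to its best member. Gene regions are on GRCm38, and start windows are from RefSeq.

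Genes named were the stalk, 5S particle, paralog and parent genes, the 2 genes with the smallest adjusted p of each other list, the 6 of each subunit, the highest and lowest 3 per length, and Lats1, Lats2, Myc, Larp1, Mtor and Eif4ebp1. Other genes with values were chosen after their values were seen. Results of some single genes are not reported here. Alternatives were other scalings (size factors of the DESeq2 type, TMM without members, library totals), DESeq2 1.42.0, no count filter, a replicate block, each library left out, WT 2 and dKO 3 left out together, counts divided by 4, a length and GC offset, a stricter threshold of 0.01 and summed copies. The last was added after the data were seen.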

Additional observations from a re-analysis of the deposited data

How the results depend on the processing

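The count of members that were higher (30) was 25 to 29 with each library left out in turn and fell to 18 at an adjusted p under 0.01 (large subunit 11, small subunit 7). The shares of all genes under these settings are not given here. The count of members that were lower (4) was the least stable. It ran from 4 to 10 with each library left out (large subunit 3 to 7, small subunit 1 to 4), was 21 without WT 2 and dKO 3 together (large 13, small 8) and 13 with the length and GC offset (large 8, small 5). With counts divided by 4 it was 5, of which 2 were of the small subunit. WT 2 had the lowest and dKO 3 the highest share of counts on members, so leaving them out by itself narrows the difference in that share. Without both, 33 members were higher, against 30 with every library. The cause of the changes in calls was not tested. The median log2 fold change of small subunit members was 0.0063 with the length and GC offset, and 0.03 to 0.16 with each library left out; that of large subunit members was 0.10 to 0.19. The difference in the share of counts was 0.501 to 0.804 percentage points with each library left out.

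Same-numbered libraries did not deviate together (correlations of -0.06, 0.05 and 0.08). This cannot show whether they were prepared together, which the labels do not say. With the replicate block 30 members were higher and 4 lower, of which 29 and 4 were those reported. None of the called genes that are named changed direction under these alternatives. DESeq2 called 29 members higher and 4 lower. The scalings moved the median of all genes by less than 0.1 on the log2 scale. The lowest tested member, Rpl29, had 1.66 to 2.46 CPM, which limits its value; how reads were shared with its copies is unknown.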

Other observations

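Over the 80 tested members, the first principal component of the log2 levels separated the libraries labelled dKO (-1.69, -1.28 and -1.86) from WT (1.48, 2.34 and 0.99) and held 66.3% of the variance, and the second held 16.8%. Over all genes tested the first component held 82.0%. The median coefficient of variation of a member was 6.46% within the libraries labelled dKO and 6.96% within WT, and with copies summed it was 6.04% in libraries labelled dKO and 6.86% in WT. The least variable member was Rpl23 in libraries labelled dKO (0.335%) and Rps9 in WT (0.787%).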
